A study of Mus musculus with 12 samples.

Results

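Neuropeptides and their receptors were followed in the calvaria of newborn mice through 9 genes, namely the precursors *Tac1*, *Gal*, *Calca*, *Npy* and *Vip* and the receptors *Tacr1*, *Galr1*, *Galr2* and *Npy1r*. The set was chosen by its FPKM levels and by its differences between mutant and control mice in these same libraries, in both comparisons. The levels of the 9 genes and their changes are therefore given as a description, with no test. They are 9 of the 23715 genes with a value. Of the 9, 6 were among the 13059 genes tested, for which 3 or more of the 12 mice had to reach 1 FPKM.

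The data are RNA-seq libraries of the skull vault of 12 C57BL/6 mice in 4 groups of 3. P-KO mice lacked *Med23*, a subunit of the Mediator complex, in mesenchymal stem cells, because *Prx1*-Cre acted on floxed *Med23* alleles, and P-Ctrl mice were their control littermates, which the labels give as WT. R-Het mice carried 1 inactive allele of *Runx2*, the transcription factor that sets the osteoblast fate (*Runx2*+/-), and R-WT mice were WT. The paper describes *Prx1*-Cre activity as largely limited to ventral and craniofacial mesenchyme. Loss of *Med23* in neurons, blood cells or vessels of P-KO mice was not examined here. The methods place the bone at the second postnatal day and name parietal bone, whereas the labels say calvaria of newborns. No sharing of a litter by replicate number is stated, and the spread below is that between mice. The P-KO and P-Ctrl mice are called the *Med23* set and the R-Het and R-WT mice the *Runx2* set.

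*Med23* had 4.54 to 5.99 FPKM in P-Ctrl mice and 4.89 to 5.74 FPKM in P-KO mice, and *Runx2* had 27.3 to 37.7 FPKM in R-WT mice and 30.4 to 35.7 FPKM in R-Het mice. The transcript sums thus did not separate either mutant group from its controls, and in these libraries the genotypes rest on the labels. In the paper only some exons of *Med23* were floxed, so the sum of the transcript need not fall. By western blot the paper found the MED23 protein largely lost in mesenchymal stem cells from bone marrow. FPKM counts fragments relative to the length of a transcript and the size of the library. Judged from the lowest values, a library held about 7940000 to 11800000 fragments. *Xist*, the RNA that coats the silenced X chromosome in females, was above 1 FPKM in P-Ctrl mice 2 and 3 and in R-WT mouse 1 only, so both mutant groups and 9 mice in all were without it.

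Neuropeptides are short signalling peptides cut from larger precursors and released mainly by nerve endings. *Tac1* encodes the precursor of substance P and neurokinin A, *Gal* that of galanin, *Calca* that of calcitonin and of calcitonin gene-related peptide (CGRP), *Npy* neuropeptide Y and *Vip* vasoactive intestinal peptide. Each acts through G protein-coupled receptors. Sensory fibres that hold substance P and CGRP and sympathetic fibres that hold neuropeptide Y run through periosteum and bone, while the neuronal cell bodies, where most of their mRNA lies, sit in ganglia outside the bone. Expression of several of these peptides and receptors has also been described in bone cells themselves.

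*Tac1* and *Gal* were the genes whose mutant mice lay beyond all their controls in both sets, and their promoters are shown for that reason. The sequences hold the 250 bases before the annotated transcript start, taken from RefSeq on GRCm38.p6 (mm10), read 5′ to 3′ on the strand of the gene. The *Tac1* window is chr6:7554811-7555060 on the plus strand and the *Gal* window chr19:3414545-3414794 on the minus strand. Capitals mark matches, on either strand, to the RUNX core TGTGGT, the cAMP response element TGACGTCA, the core of that element TGACG (which is also part of the longer motif) and the E-box CACGTG.
Tac1: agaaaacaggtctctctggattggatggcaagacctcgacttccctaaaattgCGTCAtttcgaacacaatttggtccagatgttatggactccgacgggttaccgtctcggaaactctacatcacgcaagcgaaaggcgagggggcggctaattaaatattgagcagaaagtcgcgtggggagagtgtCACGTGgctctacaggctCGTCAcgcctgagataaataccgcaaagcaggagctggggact
Gal: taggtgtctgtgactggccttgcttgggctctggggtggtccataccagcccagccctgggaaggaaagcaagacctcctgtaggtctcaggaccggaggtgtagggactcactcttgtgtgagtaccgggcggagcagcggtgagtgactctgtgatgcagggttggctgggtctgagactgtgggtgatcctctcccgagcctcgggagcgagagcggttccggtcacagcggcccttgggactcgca
The *Tac1* window held the E-box 61 bases before the start and TGACG, on the opposite strand, 197 and 43 bases before it. The *Gal* window held none of the 4 motifs, and so carries no capitals. Of all 32851 promoter windows of that length, 14.0% held the RUNX core, 1.55% the full cAMP response element, 17.8% its core and 6.02% the E-box. The windows of 8 of the 9 genes were searched, and the RUNX core was found only in that of *Galr2*, 96 bases before the start. TGACG also lay, on either strand, in the windows of *Vip*, *Calca* and *Tacr1*, 79, 65 and 226 bases before the start. These matches describe letters in the windows and not binding.

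*Tac1* (chromosome 6 of GRCm38, 7555061 to 7562978) was higher in all mutant mice than in all controls of either set. In P-Ctrl mice it had 3.18, 2.84 and 4.35 FPKM, and in P-KO mice 17.7, 14.2 and 21.1 FPKM. In R-WT mice it had 4.62, 2.60 and 7.61 FPKM, and in R-Het mice 20.3, 21.9 and 17.5 FPKM. The 6 mutant mice thus lay between 14.2 and 21.9 FPKM, and the 6 control mice between 2.60 and 7.61 FPKM. The group means were 3.46 ± 0.79 and 17.7 ± 3.46 FPKM in the *Med23* set and 4.95 ± 2.52 and 19.9 ± 2.25 FPKM in the *Runx2* set (SD, n = 3 each), ratios of 5.12 and 4.03. On log2(FPKM + 1), the scale of all log2 fold changes here, the changes were 2.07 (standard error 0.17) in the *Med23* set and 1.90 (standard error 0.28) in the *Runx2* set. These were the 30th and the 12th highest of the 13059 log2 fold changes in their sets. With 1 mouse left out in turn they went from 1.94 to 2.21 and from 1.58 to 2.21. In the mice without *Xist* they were 2.15, with P-Ctrl mouse 1 as the only control, and 1.90.

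*Gal* (chromosome 19, 3409915 to 3414544) moved in the opposite direction. It had 9.37, 13.1 and 11.8 FPKM in P-Ctrl mice and 3.77, 2.30 and 1.58 FPKM in P-KO mice. It had 7.41, 9.22 and 9.23 FPKM in R-WT mice and 6.03, 5.31 and 1.38 FPKM in R-Het mice. All mutant mice were below all controls of their set, and R-Het mouse 3 stood well below the other 2 of its group. The means were 11.4 ± 1.90 and 2.55 ± 1.12 FPKM in the *Med23* set and 8.62 ± 1.05 and 4.24 ± 2.50 FPKM in the *Runx2* set (SD, n = 3 each). The log2 fold changes were -1.84 (standard error 0.23) and -1.02 (standard error 0.37), the 14th and the 176th lowest of all tested genes. Without R-Het mouse 3 the second was -0.53. *Gal* is a short transcript, and the level in P-KO mice corresponded to roughly 11 to 26 fragments a mouse, against 84 to 115 in P-Ctrl mice.

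*Calca* (chromosome 7) was low in most mice. It had 0.966, 0.997 and 1.77 FPKM in P-Ctrl mice and 2.42, 2.24 and 7.73 FPKM in P-KO mice, groups that did not overlap. In R-WT mice it had 2.94, 0.628 and 2.87 FPKM and in R-Het mice 2.52, 2.54 and 3.34 FPKM, where the groups overlapped. The log2 fold changes were 1.05 (standard error 0.38) and 0.37 (standard error 0.32). Without P-KO mouse 3, the highest of all 12, the first was 0.59, and without R-WT mouse 2, the lowest of all 12, the second was -0.05. Both transcripts of the gene had a value of their own. The transcript that skips the calcitonin exon and encodes CGRP had a mean of 2.28 FPKM over the 12 mice, and the calcitonin transcript one of 0.304 FPKM. They share their first exons, so that the split between them is an estimate.

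*Npy* (chromosome 6) had 9.93, 3.70 and 4.82 FPKM in P-Ctrl mice and 3.62, 5.58 and 6.27 FPKM in P-KO mice. It had 6.78, 3.22 and 2.53 FPKM in R-WT mice and 2.82, 3.01 and 2.89 FPKM in R-Het mice. The groups overlapped in both sets, and 1 mouse in each control group, P-Ctrl mouse 1 and R-WT mouse 1, stood above the other 2. The log2 fold changes were -0.14 (standard error 0.32) and -0.32 (standard error 0.26). They changed sign, to 0.21 without P-Ctrl mouse 1, to 0.05 without P-KO mouse 1 and to 0.02 without R-WT mouse 1. *Vip* was below 1 FPKM in every mouse. It was listed at 0 in 10 mice, and P-Ctrl mice 2 and 3 had 0.141 and 0.234 FPKM, roughly 2 and 3 fragments. At this depth 3 fragments of *Vip* are worth 0.166 to 0.247 FPKM, and a value of 0 allows a level up to that range.

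**Figure D1:**
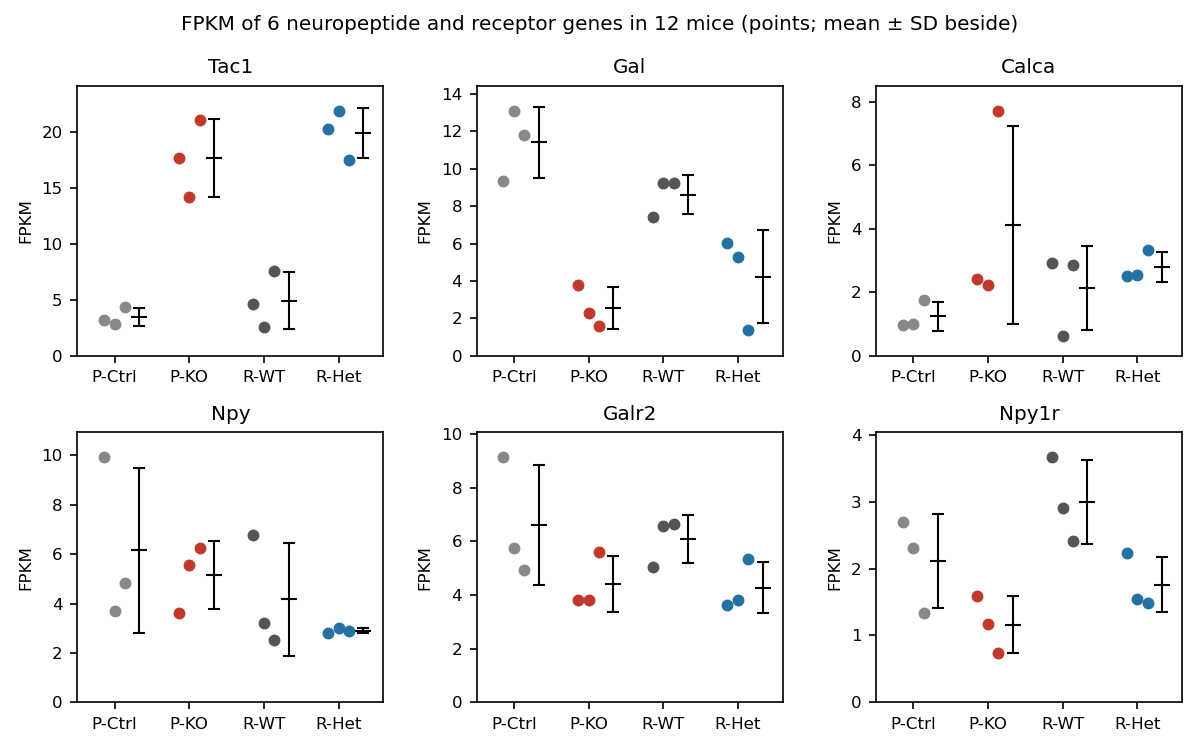
FPKM (linear axes from 0) of the 6 genes that reached 1 FPKM in at least 3 mice, with 1 point per mouse in each of the 4 groups and the mean ± SD beside the points. All 6 mutant mice lie at or above 14.2 FPKM for *Tac1* and all 6 controls at or below 7.61 FPKM, while *Gal* is lower in each mutant group than in its controls.

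Among the receptors, *Galr2*, which binds galanin, was measured in all 12 mice, and the other galanin and tachykinin receptors were close to 0. *Galr2* (chromosome 11, 116280106 to 116283950) had 9.14, 5.73 and 4.94 FPKM in P-Ctrl mice and 3.81, 3.83 and 5.62 FPKM in P-KO mice. It had 5.04, 6.55 and 6.64 FPKM in R-WT mice and 3.63, 3.81 and 5.35 FPKM in R-Het mice. In each set 1 mutant mouse, the third by number, lay within the range of the controls, so that the groups overlapped. The log2 fold changes were -0.47 (standard error 0.22) and -0.43 (standard error 0.15), and without P-Ctrl mouse 1 the first was -0.24.

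*Npy1r* (chromosome 8), a receptor of neuropeptide Y, had 2.70, 2.31 and 1.34 FPKM in P-Ctrl mice and 1.59, 1.17 and 0.735 FPKM in P-KO mice, with overlap between the groups. It had 3.67, 2.91 and 2.41 FPKM in R-WT mice and 2.23, 1.55 and 1.49 FPKM in R-Het mice, without overlap. The log2 fold changes were nearly equal, at -0.52 (standard error 0.22) and -0.53 (standard error 0.16). *Npy1r* was at or above 1 FPKM in 11 mice and *Calca* in 9, the members closest to the filter on its upper side.

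*Tacr1* and *Galr1* did not reach 1 FPKM in any mouse, and with *Vip* they are the 3 genes that were not tested. *Tacr1*, the receptor with the highest affinity for substance P, went from 0.0159 to 0.156 FPKM, which is roughly 1 to 7 fragments of a long transcript. It had 0.016, 0.016 and 0.037 FPKM in P-Ctrl mice and 0.060, 0.043 and 0.060 FPKM in P-KO mice, which did not overlap but are 1 to 2 and 2 to 3 fragments a mouse. R-WT and R-Het mice overlapped. *Galr1*, another galanin receptor, was listed at 0 in 10 mice, and the largest value was 0.040 FPKM in P-Ctrl mouse 3. For this gene 3 fragments are worth 0.0851 to 0.126 FPKM.

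**Figure D2:**
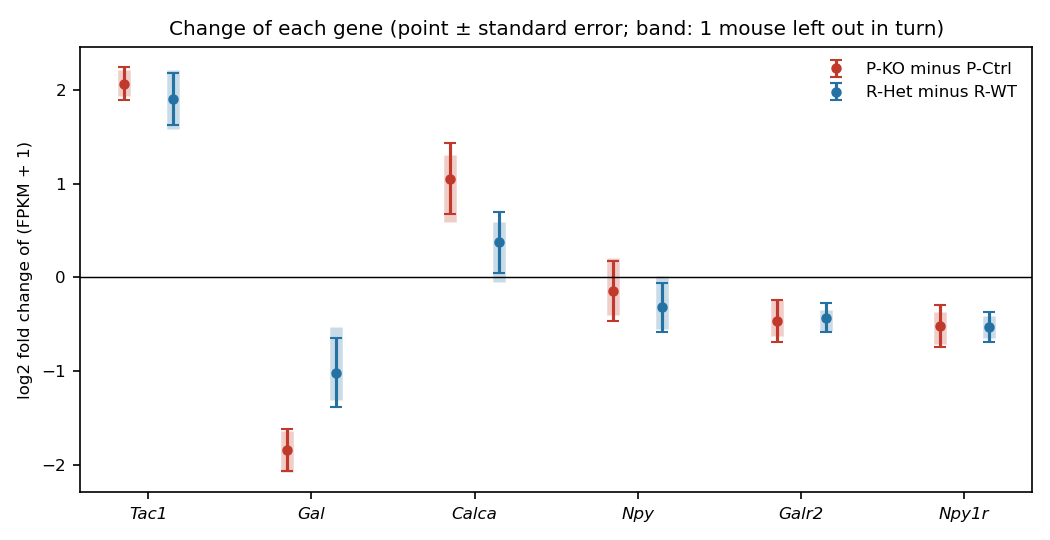
Log2 fold change of (FPKM + 1) of the 6 genes in P-KO against P-Ctrl mice and in R-Het against R-WT mice (3 mice each). Points carry the standard error and bands span the values with 1 mouse left out in turn. *Tac1* lies at 2.07 and 1.90 and *Gal* at -1.84 and -1.02, while the bands of *Npy* in both sets and of *Calca* in the *Runx2* set reach across 0.

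Counted over the 6 genes above the filter, 2 were higher and 1 lower without overlap in P-KO mice, and 1 was higher and 2 lower without overlap in R-Het mice. Of all 13059 tested genes, 19.6% were higher and 7.68% lower without overlap in P-KO mice, and 10.7% were higher and 10.4% lower in R-Het mice. Without overlap in both sets, 3.03% of the tested genes were higher and 1.7% lower, which among the 6 genes was the case for *Tac1* and for *Gal*. As these comparisons chose the genes, nothing is read from the shares.

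The order of the levels differed between control and mutant mice. In P-Ctrl mice *Gal* was highest on the FPKM scale (11.4 ± 1.90), followed by *Galr2* (6.60 ± 2.23), *Npy* (6.15 ± 3.32), *Tac1* (3.46 ± 0.79), *Npy1r* (2.12 ± 0.70) and *Calca* (1.24 ± 0.45). In this order the ranges over mice of *Galr2* and *Npy* overlapped, as did those of *Npy* and *Tac1* and those of *Npy1r* and *Calca*. In P-KO mice *Tac1* was highest (17.7 ± 3.46), and *Npy*, *Galr2*, *Calca* and *Gal* followed between 5.16 and 2.55 FPKM, each with a range over mice that overlapped the next. R-WT mice had *Gal* (8.62 ± 1.05), *Galr2* (6.08 ± 0.90) and *Tac1* (4.95 ± 2.52) on top, and R-Het mice *Tac1* (19.9 ± 2.25) alone, ahead of *Galr2* (4.27 ± 0.94) and *Gal* (4.24 ± 2.50). All of these are SD over 3 mice. Over all 12 mice the mean of *Tac1*, 11.5 FPKM, lay at percentile 55.7 of the tested genes and that of *Gal*, 6.71 FPKM, at percentile 40.9, so neither is an abundant transcript of this tissue.

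The genes whose log2 values were most like those of *Tac1* over the 12 mice were *Csrp2*, *Chodl*, *Tcea1*, *Pnmal2* and *Thap12*, with a Pearson r of 0.94 to 0.96. *Csrp2*, which encodes a LIM domain protein, had means of 205 and 316 FPKM in P-Ctrl and P-KO mice and of 244 and 311 FPKM in R-WT and R-Het mice. Its r with *Tac1* was 0.94 also for the deviations from the group means, whereas that of *Thap12* was 0.35. The genes most like *Gal* were *Vash1*, *Tmem98*, *Dapk2*, *Wfdc6a* and *Bglap2*, with r from 0.91 to 0.94. *Bglap2*, an osteocalcin gene and a marker of mature osteoblasts, had 5063 and 1553 FPKM in P-Ctrl and P-KO mice and 3972 and 3354 FPKM in R-WT and R-Het mice, and its r within groups was 0.85. *Bglap2* has near-identical copies beside it, so its values may be shared with them. *Vash1*, an inhibitor of angiogenesis, had means of 8.11, 6.19, 7.72 and 6.14 FPKM in the same order of groups, and its r within groups was 0.89. *Tac1* and *Gal* themselves had an r of -0.79 over the 12 mice and of 0.11 within groups. These coefficients describe 12 mice, 3 of each group, that share genotype and set, and they carry no test. The 10 genes were picked for the highest r over the 12 mice among the tested genes, predicted genes left out.

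Neuronal markers were low in every library, among them those of the sensory neurons that make the peptides of *Tac1* and *Calca*. The sum of the 11 sensory neuron markers with a value was 3.40 to 8.34 FPKM per mouse, and *Tubb3* made up most of it. The ion channel *Trpv1*, a marker of heat- and pain-sensing neurons, did not exceed 0.076 FPKM. The sensory sum was 4.54 to 5.80 FPKM in P-Ctrl, 6.18 to 8.34 FPKM in P-KO, 3.40 to 4.57 FPKM in R-WT and 4.50 to 5.47 FPKM in R-Het mice. It was thus higher without overlap in P-KO mice, as *Tac1* was, and overlapped in the *Runx2* set. *Tubb3* had 3.48 to 4.80 FPKM in P-Ctrl and 5.48 to 7.64 FPKM in P-KO mice. The 10 sympathetic markers summed to 3.69 to 12.8 FPKM, with *Hand2* at 0 in all mice, and the 10 brain neuron markers to 10.1 to 21.95 FPKM. The epidermis list stayed at or below 7.50 FPKM in sum.

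Sums of some other cell types also differed between the groups. The osteoblast list (10 genes) summed to 42586 to 44297 FPKM in P-Ctrl, 20666 to 27878 FPKM in P-KO, 34637 to 39477 FPKM in R-WT and 24852 to 32113 FPKM in R-Het mice, so that it was lower without overlap in both mutant groups, as *Gal* was. In the *Runx2* set *Spp1* was lower without overlap (15059 to 19342 FPKM in R-WT and 9444 to 12168 FPKM in R-Het mice). The groups of that set overlapped in *Bglap*, *Col1a1* and *Col1a2*. The Schwann cell list (10 genes) summed to 163 to 200 FPKM in P-Ctrl, 212 to 221 FPKM in P-KO, 177 to 182 FPKM in R-WT and 205 to 217 FPKM in R-Het mice, higher without overlap in both mutant groups, as *Tac1* was. Most of that sum was *Pmp22*, which other cells express too, and *S100b*, the next largest, overlapped between the groups of both sets. The mast cell list (8 genes) was 81.5 to 163 FPKM in P-Ctrl and 192 to 235 FPKM in P-KO mice, and 97.9 to 132 FPKM in R-WT and 102 to 214 FPKM in R-Het mice. The part of these cells in the values of *Tac1* and *Gal* was not tested. In bulk tissue, fewer cells of a type and less RNA per cell cannot be told apart.

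Skeletal muscle markers (10 genes) differed widely between mice. They summed to 23.0 to 1388 FPKM in P-Ctrl, 602 to 4186 FPKM in P-KO, 1913 to 5637 FPKM in R-WT and 26.9 to 189 FPKM in R-Het mice. The groups of the *Med23* set overlapped, and the sum was lower without overlap in R-Het than in R-WT mice. Beside these sums, *Tac1* had 14.2 to 21.1 FPKM in P-KO mice and 17.5 to 21.9 FPKM in R-Het mice. The part of muscle in the values of *Tac1* and *Gal* was not tested. The endothelial list (8 genes) summed to 120 to 143 FPKM in P-Ctrl, 124 to 128 FPKM in P-KO, 126 to 131 FPKM in R-WT and 96.7 to 107 FPKM in R-Het mice.

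**Figure D3:**
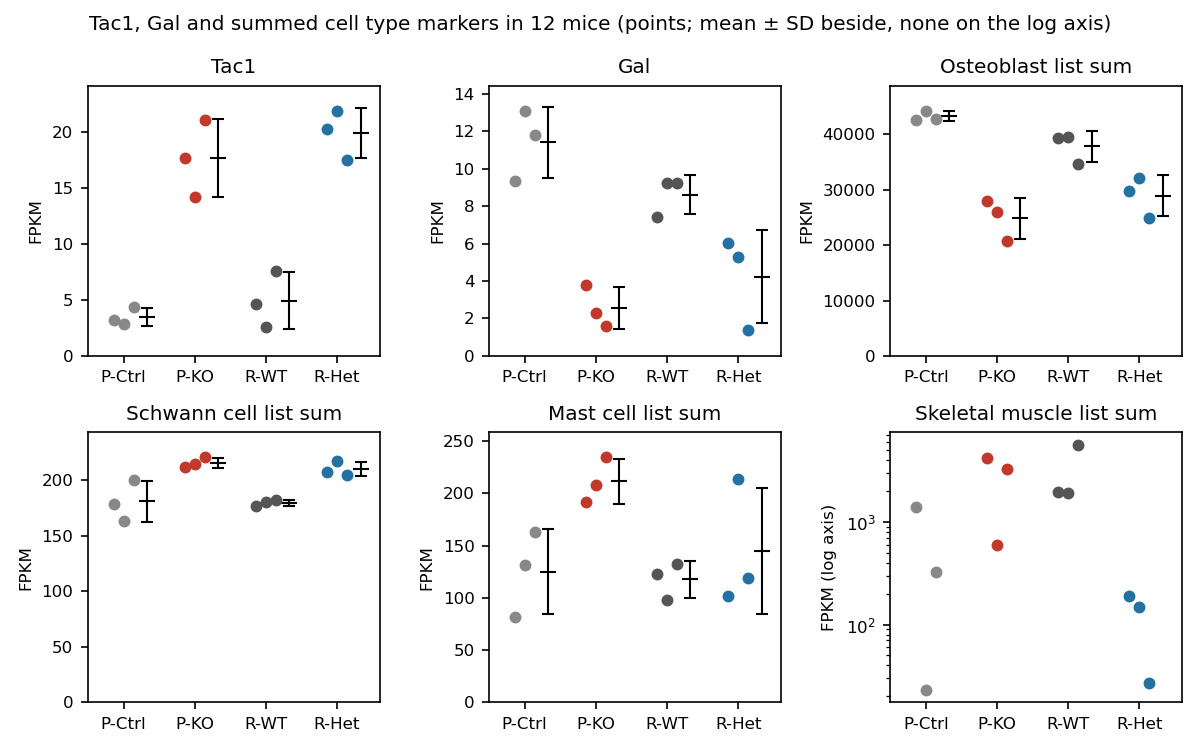
FPKM per mouse of *Tac1*, of *Gal* and of the summed markers of osteoblasts, Schwann cells, mast cells and skeletal muscle (log axis for muscle, linear axes from 0 for the others; mean ± SD beside the points on linear axes). *Gal* and the osteoblast sum are lower, and *Tac1* and the Schwann cell sum higher, in both mutant groups, while the muscle sum is at most 189 FPKM in R-Het mice and spans 23.0 to 1388 FPKM in P-Ctrl mice. Most of the Schwann cell sum is *Pmp22*, and single markers of both lists overlap between groups.

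Beside the 9 genes, 47 further genes of these peptide systems were followed, listed by their role. Of these, 23 passed the filter and were tested by limma with Benjamini-Hochberg adjustment over all 13059 genes. In P-KO mice 1 of the 23 genes rose and 0 fell at an adjusted p under 0.05, while 1.57% of all tested genes passed in that set, 1.01% higher and 0.559% lower. At an unadjusted p under 0.05, 4 of the 23 were higher and 0 lower, against 21.3% of all genes in either direction. In R-Het mice 0 rose and 2 fell, while 1.89% of all tested genes passed, 0.398% higher and 1.49% lower. At an unadjusted p under 0.05, 4 were higher and 2 lower, against 15.4% of all genes. Over the 23 genes the log2 fold changes had a median of -0.05 in the *Med23* set (0.06 over all tested genes) and of 0.10 in the *Runx2* set (0.02 over all).

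The other ligands were low, and those above the filter did not pass the test in either set. Of the tachykinin and galanin families, *Tac4*, the precursor of hemokinin, had the highest mean, 0.875 FPKM. It rested on P-KO mouse 1 (6.62 FPKM) and R-WT mouse 1 (2.03 FPKM), and every other mouse was at or below 0.629 FPKM. The 3 further tachykinin and galanin receptors never reached 1 FPKM, and *Tacr3*, which had the highest mean over the 12 mice, stayed at or below 0.129 FPKM. The highest single value among them was 0.153 FPKM, of *Galr3* in R-Het mouse 3. Of the 6 further genes of the neuropeptide Y family, *Pyy*, *Ppy* and *Npy5r* were listed at 0 in all 12 mice, and *Npy6r* had the highest mean, 0.159 FPKM. *Vipr2*, a receptor of vasoactive intestinal peptide, was the only tested gene of its family, with 0.843 ± 0.051 and 0.813 ± 0.253 FPKM in the *Med23* set and 1.41 ± 0.215 and 1.26 ± 0.264 FPKM in the *Runx2* set (SD, n = 3 each). It changed by -0.03 and -0.09 on the log2 scale, with adjusted p-values of 0.932 and 0.823 by limma. *Adm*, the precursor of adrenomedullin, had 2.70 ± 0.12 and 2.09 ± 0.70 FPKM in P-Ctrl and P-KO mice and 2.84 ± 0.63 and 3.68 ± 0.64 FPKM in R-WT and R-Het mice, log2 differences of -0.29 and 0.29 that did not pass (adjusted p = 0.394 and 0.431 by limma).

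Receptor subunits of the CGRP family held the genes that fell. *Calcr*, the calcitonin receptor, which osteoclasts carry, had 2.95, 2.46 and 1.99 FPKM in R-WT mice and 0.704, 0.447 and 0.959 FPKM in R-Het mice. It fell by 1.03 on the log2 scale (standard error 0.17, limma adjusted p = 0.032). In the *Med23* set it had 1.89 ± 0.52 and 1.17 ± 0.76 FPKM, a difference of -0.45 on the log2 scale that did not pass (adjusted p = 0.363 by limma). *Ramp1*, whose product joins the receptor protein of *Calcrl* to form the CGRP receptor, had 22.2, 23.6 and 26.9 FPKM in R-WT mice and 15.1, 17.6 and 14.9 FPKM in R-Het mice. It fell by 0.58 on the log2 scale (standard error 0.10, limma adjusted p = 0.0403), whereas it had 21.3 ± 3.85 and 21.2 ± 2.85 FPKM in the *Med23* set, a difference of -0.01 on the log2 scale (adjusted p = 0.985 by limma). The difference between the sets was 0.58 for *Calcr* (limma adjusted p = 0.436) and 0.58 for *Ramp1* (limma adjusted p = 0.182), so a difference was not shown for either. *Calcrl* itself, named after its values had been seen, had means of 6.38, 7.83, 7.77 and 8.46 FPKM in P-Ctrl, P-KO, R-WT and R-Het mice and passed in neither set. *Ramp2*, whose product joins the same receptor protein for adrenomedullin, was higher without overlap in both mutant groups, but did not pass. It had the highest mean of this group over all 12 mice, 76.3 FPKM, just above the 75.3 FPKM of *Ackr3*, which was the higher of the pair in both control groups (82.4 and 82.6 FPKM). It had 61.1 ± 12.4 and 89.3 ± 12.9 FPKM in the *Med23* set (log2 fold change 0.55, limma adjusted p = 0.133) and 66.1 ± 13.2 and 88.7 ± 10.5 FPKM in the *Runx2* set (0.43, limma adjusted p = 0.227).

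Of the genes that cut, amidate or sort the precursors, 3 of 7 were tested, and of those that degrade the peptides 6 of 6. The convertases *Pcsk1* and *Pcsk2*, named after their values had been seen, had means over the 12 mice of only 0.021 and 0.109 FPKM. *Cpe*, a carboxypeptidase that trims precursors, had the highest mean of the first group, with group means of 286, 264, 236 and 214 FPKM in P-Ctrl, P-KO, R-WT and R-Het mice (limma adjusted p = 0.675 and 0.581). *Mme*, neprilysin, which degrades substance P among other peptides, had 34.6, 26.4 and 32.6 FPKM in P-Ctrl mice and 44.0, 48.7 and 44.2 FPKM in P-KO mice without overlap. Its log2 fold change of 0.54 (standard error 0.11) did not pass (limma adjusted p = 0.0662). In the *Runx2* set it had 32.9 ± 2.75 and 33.4 ± 1.96 FPKM, a difference of 0.02 on the log2 scale (adjusted p = 0.93 by limma). The 4 tested genes of nerve growth and guidance included the gene that rose in P-KO mice, *Sema3a*, a secreted repellent of sensory axons. *Sema3a* had 8.68, 7.69 and 7.95 FPKM in P-Ctrl mice and 11.2, 11.7 and 12.7 FPKM in P-KO mice, so that it rose by 0.50 on the log2 scale (standard error 0.09, adjusted p = 0.0495 by limma). In R-WT mice it had 8.48, 7.61 and 8.39 FPKM and in R-Het mice 11.0, 9.66 and 11.0 FPKM, again without overlap, but the change of 0.33 did not pass (limma adjusted p = 0.126).

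All 3 calls were close to the threshold. *Sema3a* lost its call with any 1 of the 6 mice of its set left out (limma adjusted p = 0.0902 to 0.155), and *Ramp1* likewise (0.0552 to 0.127). *Calcr* kept its call only without R-Het mouse 3 (limma adjusted p = 0.0444) and lost it without any of the other 5 mice (0.0546 to 0.13). For the difference between the sets, 0 of the 23 genes passed the limma adjusted p and 4 had an unadjusted p under 0.05, while 0.153% and 15.3% of all tested genes did so.

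**Figure D4:**
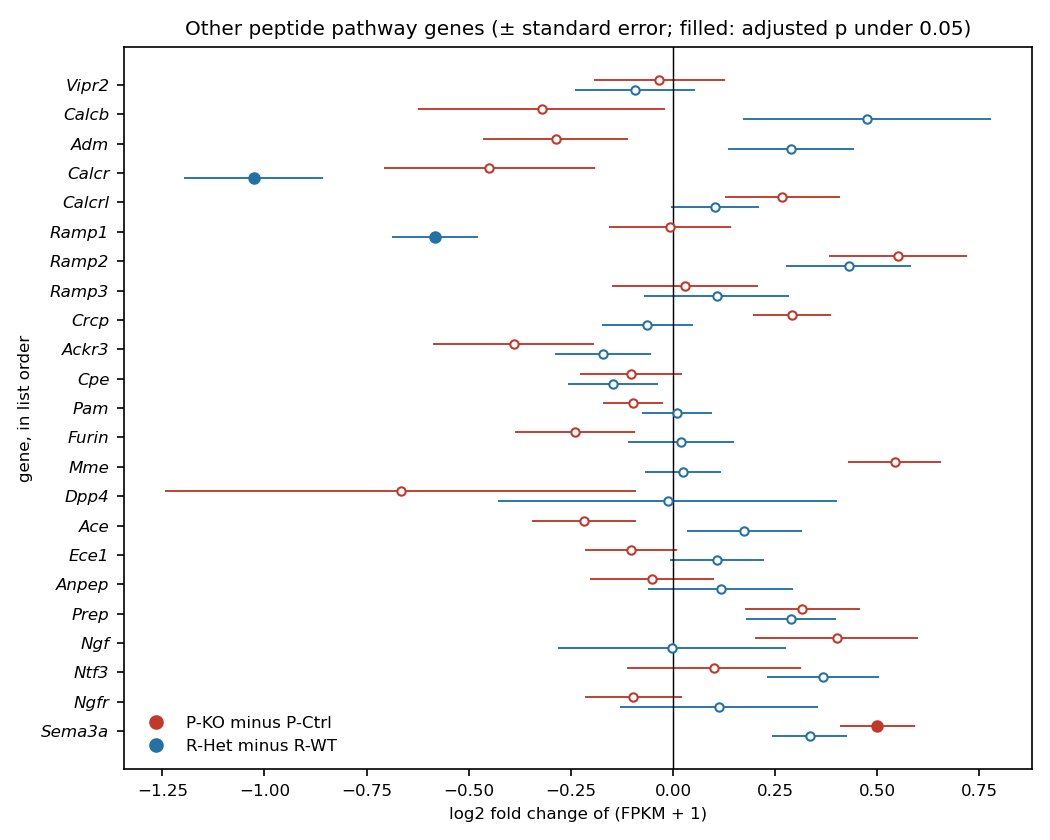
Log2 fold change of (FPKM + 1), with its standard error, of the 23 further peptide pathway genes that were tested, in P-KO against P-Ctrl and R-Het against R-WT mice (3 mice each). Filled points have a limma adjusted p under 0.05, which holds for *Sema3a* in the *Med23* set (0.50) and for *Calcr* and *Ramp1* in the *Runx2* set (-1.03 and -0.58).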

How the data were processed

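RNA-seq values of 12 mice were analysed, 1 file per mouse. The authors isolated total RNA with TRIzol, made Illumina TruSeq libraries and deposited FPKM values per RefSeq transcript. The unit was inferred from the values. The submitters' processing notes name Bowtie 0.12.8 and mm10, and the program that estimated the values is not given in the sources used here. Transcripts were matched to symbols by NCBI's gene table of GRCm38 (29831) or by GENCODE M21 (184), and 396 kept their identifier. Values were summed per gene.

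Genes that reached 1 FPKM in 3 or more mice were tested on log2(FPKM + 1) by limma 3.58.1 (R 4.3.3) with a mean-variance trend and Benjamini-Hochberg adjustment, 6 mice per set, and 12 mice for the difference between sets. The pseudocount understates changes of low genes. The fit was tested on simulated data. Depth was estimated from what 1 fragment is worth in genes with 1 transcript of at least 2000 bases, using GENCODE lengths, and is rough. It covers counting error only.

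The 9 genes and the gene lists were chosen with earlier results of these data known. The text names the 9 genes, pathway genes with an adjusted p under 0.05, the most abundant gene of each role, and the 5 genes most like *Tac1* or *Gal*, without predicted genes. Alternatives were a pseudocount of 0.1, no filter, all mice in 1 fit, a replicate block, rescaled sums, mice without *Xist* and each mouse left out. Labels give no batches. Some marker genes are not reported here by name.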

Additional observations from a re-analysis of the deposited data

How the results depend on the processing

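*Tac1* kept a positive and *Gal* a negative log2 fold change in both sets under all 12 alternatives, as did *Galr2* and *Npy1r* (negative) and *Calca* in the *Med23* set (positive). *Npy* in both sets and *Calca* in the *Runx2* set changed sign in 2, 2 and 1 of them. Dropping the filter, fitting all 12 mice at once and the replicate block could not move these values, as they leave the group means unchanged. In the *Runx2* set the fit of mice without *Xist* is the fit without R-WT mouse 1. The 2 sign changes of *Npy* in that set are therefore 1 fit. Shifts beyond the SD between mice of a group were those of *Tac1* in the *Med23* set with a pseudocount of 0.1 (2.33), and of *Npy* (-0.85) and *Galr2* (-0.92) in that set in the mice without *Xist*, where P-Ctrl mouse 1 is the only control. Over the fits that each left out 1 mouse, the changes in the *Med23* and *Runx2* sets on the log2 scale were 1.94 to 2.21 and 1.58 to 2.21 for *Tac1*, -2.08 to -1.64 and -1.31 to -0.53 for *Gal*, 0.59 to 1.30 and -0.05 to 0.59 for *Calca*, -0.40 to 0.21 and -0.55 to 0.02 for *Npy*, -0.63 to -0.24 and -0.58 to -0.35 for *Galr2*, and -0.71 to -0.37 and -0.65 to -0.41 for *Npy1r*. The median r of the 10 genes most like *Tac1* or *Gal* was 0.94, and 0.75 for deviations from the group means. Counts of calls depended on the processing, and the cause was not tested. Of all genes, limma called 205 in the *Med23* set. The count was 1 without a filter, 717 with all 12 mice in 1 fit, 107 with rescaled sums and 0 in the mice without *Xist* (2153 at an unadjusted p under 0.05), and 0 to 35 with 1 mouse left out, where it was 0 without P-KO mouse 1. Rescaling turned 132 higher and 73 lower genes into 42 and 65. In the *Runx2* set limma called 247 genes, 5 without a filter, 95 with all 12 mice, 90 with the replicate block, 34 in the mice without *Xist* and 34 to 169 with 1 mouse left out. Of the other pathway genes, 1 was called in the *Med23* set, 0 without a filter, with the replicate block, with rescaled sums, in the mice without *Xist* or with any 1 mouse left out, and 2 with all 12 mice (4 to 6 at an unadjusted p under 0.05). In the *Runx2* set 2 were called, 1 with rescaled sums, 0 without a filter, with all 12 mice, with the replicate block or in the mice without *Xist*, and 0 to 1 with 1 mouse left out (4 to 7 at an unadjusted p under 0.05). The difference between the sets gave 0 calls throughout (2 to 5 at an unadjusted p under 0.05). Replicate numbers were not taken as pairs. Deviations of same-numbered mice had an r across genes of 0.18, 0.259 and 0.0528 in the *Med23* set, where each mouse was closest to its own number, and of 0.0048, -0.0474 and -0.0836 in the *Runx2* set. With the replicate block, limma called 273 genes in the *Med23* set. Depth limits *Vip*, *Tacr1* and *Galr1*, at few or no fragments.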

Other observations

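P-KO mouse 1 and R-WT mouse 1, mice of different sets and genotypes, stood apart together in several genes of low level, among them some neuronal markers. *Tac4* had 6.62 and 2.03 FPKM in them and at most 0.629 FPKM in the other 10 mice. *Chgb*, which encodes the granule protein secretogranin 1, had 5.43 and 2.98 FPKM and at most 0.854 FPKM in the others. *Npy6r* had 0.856 and 0.456 FPKM, and R-Het mouse 3 came close with 0.446 FPKM. Of the neuronal markers, *Snap25* had 8.07 and 3.65 FPKM in these mice and at most 1.67 FPKM in the others, *Syt1* 0.619 and 0.393 FPKM against at most 0.209 FPKM, and *Chga* 0.545 and 0.464 FPKM against at most 0.243 FPKM. Several other markers of the same lists did not set both mice apart. *Nrgn* had 8.67 and 6.51 FPKM in them and up to 14.6 FPKM in the others. *Stmn2* had 4.18 and 5.92 FPKM against up to 5.63 FPKM, and *Gad2* was listed at 0 in both mice. The genes were named after their values had been seen. Neither mouse was the highest of its set in *Tac1*, which had 17.7 and 4.62 FPKM in them, or in *Calca*, apart from R-WT mouse 1 (2.94 FPKM) within its own group.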
